A study of Mus musculus with 12 samples.

Results

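The comparison described here is KO-labelled against control hepatocytes, both exposed to SR9009: 3 KO-labelled and 3 control libraries, 6 of the 12 libraries of the series, over 11213 of 37991 gene models. The 6 libraries were chosen by their labels for genotype and treatment, and a gene was kept when it reached 1 FPKM (fragments per kilobase of gene model, scaled to the size of the library) in at least 3 of the 12 libraries. Hepatocytes are the main cell of the liver. All 12 libraries came from male mice, 10 weeks old, with loxP sites at both REV-ERB genes, so the controls carried the floxed alleles too. The mice had received an AAV8 virus 2 weeks earlier. Under the hepatocyte promoter TBG, the virus carried Cre recombinase with GFP for the KO label and GFP alone for the control. The isolated cells were plated on collagen and held for 8 h in 10 µM SR9009, a synthetic compound described as a REV-ERB agonist, and the other 6 libraries, 3 of each genotype, had the solvent DMSO. No library analysed here had Cre in cells lacking the floxed alleles, and what Cre itself does and what REV-ERB loss does cannot be told apart. The labels do not say whether the 3 libraries of a group came from separate mice, so p-values reflect the spread among these libraries alone, which may be technical.

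REV-ERBα (Nr1d1) and REV-ERBβ (Nr1d2) are nuclear receptors that repress transcription. They bind DNA at ROR response elements (RORE), which they share with the activating ROR receptors, and recruit the corepressor NCoR with the histone deacetylase HDAC3. In the circadian clock they repress Arntl (BMAL1), and in liver they are also known for control of lipid, glucose and bile acid metabolism. The comparison asks how KO-labelled and control cells differ when the compound is present in both.

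Promoters that hold a RORE are shown first, because it is the element that REV-ERB binds, and the sequences printed are those of the genes called. The element was searched by its consensus, an A/T-rich 5′ stretch followed by the core GGTCA, on both strands of windows from 250 bases before to 50 bases after each annotated start (RefSeq, GRCm38.p6). Of 7503 tested genes with a window, 20 (0.267%) held it in any window. Counted by single windows of all genes, 126 of 32851 held it (0.384%). The first share is per gene and the second per window, so they cannot be compared. Of these 20 genes, 5 were higher in KO-labelled cells under SR9009, 0 were lower and 15 were not called. Over all tested genes 20.4% were called, 12.9% higher and 7.43% lower, so with 20 genes this count is near the background. The 5 genes were Arntl, the serum amyloid P gene Apcs, the cytochrome P450 Cyp3a11, the transcription elongation factor gene Leo1 and the innate immune regulator Nlrp12. Cyp3a11, Leo1 and Nlrp12 were named after their values were seen. Capitals mark the element, and each sequence runs 5′ to 3′ on the strand of its gene.
Arntl: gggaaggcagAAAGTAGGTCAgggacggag
Apcs: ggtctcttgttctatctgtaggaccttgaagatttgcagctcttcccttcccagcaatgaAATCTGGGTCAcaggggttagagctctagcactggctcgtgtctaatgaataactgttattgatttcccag
Cyp3a11: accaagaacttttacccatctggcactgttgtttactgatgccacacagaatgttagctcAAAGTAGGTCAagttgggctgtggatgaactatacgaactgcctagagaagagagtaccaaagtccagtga
Leo1: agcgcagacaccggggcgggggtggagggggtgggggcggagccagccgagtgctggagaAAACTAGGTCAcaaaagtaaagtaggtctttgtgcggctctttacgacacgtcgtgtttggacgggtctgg
Nlrp12: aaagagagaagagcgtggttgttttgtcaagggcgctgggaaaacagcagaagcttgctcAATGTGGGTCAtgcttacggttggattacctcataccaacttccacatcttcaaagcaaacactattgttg
In GRCm38.p6 these stretches lie at chr7:113207527-113207556, plus strand (Arntl), chr1:172895100-172895230, minus strand (Apcs), chr5:145879951-145880081, minus strand (Cyp3a11), chr9:75441397-75441527, plus strand (Leo1) and chr7:3249734-3249864, minus strand (Nlrp12). The Arntl element begins 26 bases after the annotated start and the other elements lie upstream of theirs. Levels were 0.218 ± 0.15 to 5.41 ± 0.437 FPKM for Arntl, 137 ± 8.58 to 392 ± 25.7 for Apcs, 1419 ± 52.3 to 1784 ± 22.6 for Cyp3a11, 6.58 ± 0.424 to 11.7 ± 1.07 for Leo1 and 4.73 ± 0.631 to 10.3 ± 1.15 for Nlrp12 from control to KO-labelled cells. The core AGGTCA alone stood in 15.6% of the tested genes with a window, in 17.9% of those higher, in 19.9% of those lower and in 14.8% of those not called. A match is a description of the letters and not of binding, and Npas2, which had a very large rise, held no RORE in its window.

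The 6 SR9009 libraries resembled each other closely. Between 10611 and 10802 genes reached 1 FPKM, and log2 values of 2 libraries of one group correlated across genes with r of 0.982 to 0.991, against 0.971 to 0.979 for a KO-labelled and a control library. The first principal component of all 12 libraries (41.2% of the variance) separated the genotypes and the second (17.2%) the treatments. Read totals are not part of the table, but low values fall on steps that give relative depth. Control SR9009 library 1 was the shallowest, at 55.5% of the deepest library of the series, and the other 5 lay between 84.5% and 87.6%. A step for a gene of 1 kb was 0.0337 FPKM in that library, so a level near 0.1 FPKM there comes from a handful of fragments.

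The targeted genes were not lower in the KO-labelled cells under SR9009. Nr1d1 (mm9 chromosome 11, 98629246 to 98636647) stood at 20.1, 19 and 19.4 FPKM in the control libraries and 22.5, 21.5 and 22.2 FPKM in the KO-labelled ones, which did not overlap (exact permutation p = 0.1, two-sided, the smallest that 3 against 3 allows). The log2 difference of Nr1d1 was 0.17 (limma adjusted p = 0.0429), and this call was lost under 10 of 15 alternatives, with an adjusted p up to 0.144. Nr1d2 (mm9 chromosome 14, 19036568 to 19071641) stood at 16.7, 15.7 and 13.5 FPKM in the control libraries and 15.9, 18.2 and 18.9 FPKM in the KO-labelled ones, and the groups overlapped (exact permutation p = 0.2, two-sided). In DMSO Nr1d1 stood slightly lower in the KO-labelled libraries, at 18.3, 18.3 and 19 FPKM in the control and 17.4, 17.5 and 18.3 FPKM in the KO-labelled ones (exact permutation p = 0.1, two-sided; limma adjusted p = 0.492). The values cover whole gene models, and which exons were floxed is not stated in the labels, so the levels of Nr1d1 and Nr1d2 do not show whether the genes were deleted, and the cells are called KO-labelled throughout. Thra, on the opposite strand, shares 1075 bp with the Nr1d1 model.

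Of 11213 genes, 2283 (20.4%) passed an adjusted p of 0.05 between KO-labelled and control cells under SR9009, 1450 (12.9%) higher and 833 (7.43%) lower in the KO-labelled cells. An unadjusted p under 0.05 was found for 3738 genes. The groups did not overlap for 3918 genes (34.9%), with the KO-labelled libraries above for 2540 and below for 1378. Most differences were small. The median size among the genes called was 0.46 on the log2(FPKM + 1) scale, which understates changes of genes at low levels, and 88 genes higher and 127 lower differed by more than 1. The median over all tested genes was 0.06. In the fit to the 6 SR9009 libraries alone the count was 1518 (905 higher and 613 lower), and without KO-labelled library 3 it was 1651. Without control library 1, the shallowest, it was 2142.

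The genes that rose most encode secreted and matrix proteins, enzymes of steroids and drugs, and clock factors. Lcn13, a secreted lipocalin, stood at 1.89, 0.973 and 1.06 FPKM in the control libraries and 35.4, 31.9 and 31.6 FPKM in the KO-labelled ones. No control library came near the KO-labelled ones, and the log2 difference of 3.90 (SE 0.16, adjusted p = 7.23e-09) was the largest rise among the genes named by rule. Loxl4, a lysyl oxidase that crosslinks collagen, stood at 1.07, 0.784 and 0.413 FPKM in the control libraries and 15.4, 17.4 and 16.9 FPKM in the KO-labelled ones (log2 difference 3.34). Hsd17b6, a steroid and retinoid dehydrogenase, stood at 29.5, 29.2 and 31.3 FPKM in the control libraries and 273, 277 and 286 FPKM in the KO-labelled ones and differed 9.3-fold. The Hsd17b6 libraries of each group lay close together. Cyp17a1, the hydroxylase and lyase of steroid synthesis, was at 0.453, 0.182 and 0.258 FPKM in the control libraries and 6.71, 6.71 and 6.5 FPKM in the KO-labelled ones, so that it went from the edge of detection to a moderate level. Dhrs9, a further dehydrogenase of retinoids and steroids, rose from 2.59 ± 0.521 to 14.4 ± 1.03 FPKM.

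Among the enzymes of drug metabolism, Cyp2a5, the coumarin hydroxylase, rose 7.46-fold from 399.5 ± 5.02 to 2981 ± 20.8 FPKM, and its close relative Cyp2a4 from 0.939 ± 0.575 to 12.7 ± 1.07. Cyp3a59 rose from 8.75 ± 0.679 to 44 ± 1.91 FPKM and the glutathione transferase Gstm3 4.06-fold from 317 ± 15.8 to 1286 ± 19. Reads can be split between near-identical copies in the Cyp2a, Cyp3a and Gstm families, so single members are uncertain. Slco1a4, an importer of organic anions, rose from 5.97 ± 0.99 to 29.4 ± 3.59 FPKM. Lpl, the lipase that releases fatty acids from lipoproteins, stood at 2.12, 1.91 and 2.47 FPKM in the control libraries and 12.5, 11.2 and 16.1 FPKM in the KO-labelled ones. Serpina12 (vaspin), an adipokine, rose from 2.88 ± 0.577 to 15 ± 1.31 FPKM. The chemokine Ccl2, which attracts monocytes, stood at 14.9, 7.92 and 13.3 FPKM in the control libraries and 71.5, 83.7 and 57.6 FPKM in the KO-labelled ones (log2 difference 2.49, adjusted p = 6.40e-05). Its KO-labelled libraries spread widely, yet the lowest was well above every control.

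**Figure D1:**
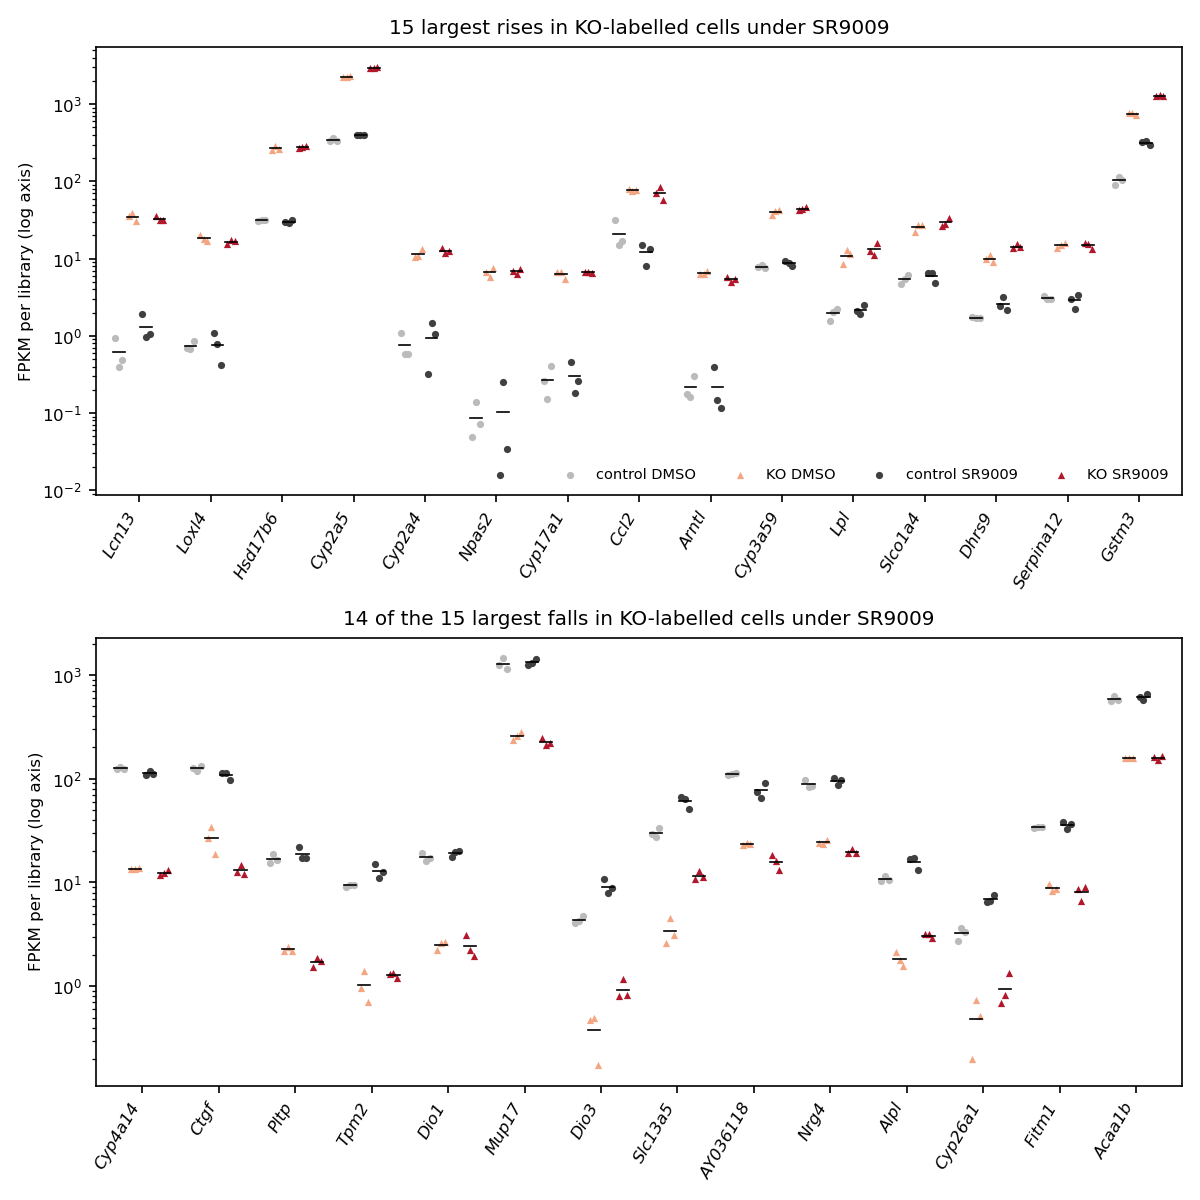
FPKM (log axis) per library of the 15 largest rises (top) and 14 of the 15 largest falls (bottom) between KO-labelled and control cells under SR9009, with the DMSO libraries beside them; points are the 3 libraries of a group and black lines their means. The KO-labelled SR9009 libraries lie apart from the control SR9009 ones for each gene shown, as the choice of the genes required.

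The genes that fell most act in fatty acid hydroxylation, lipid transfer, the cytoskeleton and thyroid hormone activation. Cyp4a14, a fatty acid hydroxylase induced by PPARα, stood at 109, 119 and 112 FPKM in the control libraries and 11.9, 12.3 and 13.2 FPKM in the KO-labelled ones, a difference of 9.1-fold (log2 difference -3.09, adjusted p = 2.51e-12). Acaa1b, a peroxisomal thiolase, fell from 612 ± 39.5 to 159 ± 6.31 FPKM. The phospholipid transfer protein gene Pltp stood at 22.1, 17.4 and 17.1 FPKM in the control libraries and 1.53, 1.88 and 1.77 FPKM in the KO-labelled ones, and its model overlaps the higher one of Ctsa on the opposite strand by 1515 bp. The citrate importer Slc13a5 stood at 66.6, 64.2 and 51.4 FPKM in the control libraries and 10.8, 12.9 and 11.2 FPKM in the KO-labelled ones. Fitm1, which helps to form lipid droplets, fell from 35.9 ± 2.79 to 8.17 ± 1.29 FPKM.

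The deiodinase genes Dio1 and Dio3 fell. Dio1, which activates thyroid hormone, stood at 17.7, 19.8 and 20.2 FPKM in the control libraries and 3.13, 2.22 and 1.94 FPKM in the KO-labelled ones, and Dio3, which inactivates it, at 10.8, 7.85 and 8.75 FPKM in the control libraries and 0.8, 1.16 and 0.832 FPKM in the KO-labelled ones. The groups were far apart for both genes, at a low level for Dio3. Cyp26a1, which degrades retinoic acid, fell from 6.92 ± 0.65 to 0.953 ± 0.346 FPKM, and Alpl, an alkaline phosphatase, from 15.8 ± 2.19 to 3.08 ± 0.138. The matricellular protein gene Ctgf, a target of YAP, stood at 112, 113 and 97.7 FPKM in the control libraries and 12.5, 14.8 and 12.1 FPKM in the KO-labelled ones, 8.2-fold lower. Tpm2, a tropomyosin of actin filaments, stood at 15.1, 11 and 12.5 FPKM in the control libraries and 1.31, 1.35 and 1.19 FPKM in the KO-labelled ones. Nrg4, a growth factor secreted by liver and brown fat, fell from 95.4 ± 7.38 to 19.8 ± 0.969 FPKM, and its model overlaps that of Fbxo22 on the opposite strand by 4212 bp. Mup17, a major urinary protein, fell 5.82-fold from 1319 ± 98 to 227 ± 18.7 FPKM. The model AY036118, which has no gene name, fell from 77.2 ± 12.6 to 15.9 ± 2.47 FPKM.

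Most clock activators were higher in KO-labelled cells, and the Period genes Per1 and Per2 were lower. Of 8 tested activators and other clock genes with sites for ROR and REV-ERB, 6 were higher and 1 lower in the KO-labelled cells (median log2 difference 0.65, against 0.06 over all genes tested). Arntl, the activator BMAL1, stood at 0.391, 0.146 and 0.117 FPKM in the control libraries and 5.86, 4.99 and 5.37 FPKM in the KO-labelled ones (adjusted p = 2.40e-08). Npas2, a partner of BMAL1, stood at 0.0159, 0.255 and 0.034 FPKM in the control libraries and 6.92, 6.23 and 7.3 FPKM in the KO-labelled ones (log2 difference 2.83). The control levels of both genes rest on few fragments, and the KO-labelled libraries were all above 4 FPKM. Clock, the other partner, rose from 2.01 ± 0.299 to 4.02 ± 0.774 FPKM, less than either. Nfil3, a repressor of D-box genes, rose from 27.9 ± 1.37 to 56.3 ± 2.09 FPKM, Cry1, a repressor of the BMAL1 complex, from 9.57 ± 1.09 to 13.8 ± 0.529, and the activating receptor gene Rora from 3.95 ± 0.661 to 6.34 ± 0.467. Bhlhe41, which had a log2 difference of -0.14 (adjusted p = 0.338), was the member not called.

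Of 14 tested repressors and D-box outputs, 2 were higher, 2 lower and 10 not called (median 0.01). Over all tested genes 12.9% were higher and 7.43% lower, so with 14 genes these counts are near the background. Per1 stood at 33.4, 29.2 and 25.9 FPKM in the control libraries and 17.8, 19.5 and 16.4 FPKM in the KO-labelled ones and Per2 at 8.23, 8.1 and 6.53 FPKM in the control libraries and 3.36, 4.77 and 4.13 FPKM in the KO-labelled ones. Both repressors were lower without overlap, with log2 differences of -0.69 and -0.77 (adjusted p = 2.07e-04 and 3.76e-04). Dbp, a D-box activator, rose from 1.4 ± 0.448 to 3.21 ± 0.608 FPKM, and its model overlaps the higher one of Sphk2 by 689 bp on the opposite strand. Besides Dbp, Nr1d1 was higher. Per3, Cry2, Nr1d2, Tef, Hlf, Gm129 (Ciart), Bhlhe40, Csnk1d and Csnk1e were among those that did not pass, with log2 differences from -0.38 for Csnk1e to 0.28 for Hlf. None of the 6 tested subunits of the NCoR and HDAC3 corepressor passed, with a median log2 difference of 0.03. Tbl1xr1 was nearest, at -0.15 (adjusted p = 0.446). Since 20.4% of all tested genes were called, no call among 6 subunits is near the background.

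**Figure D2:**
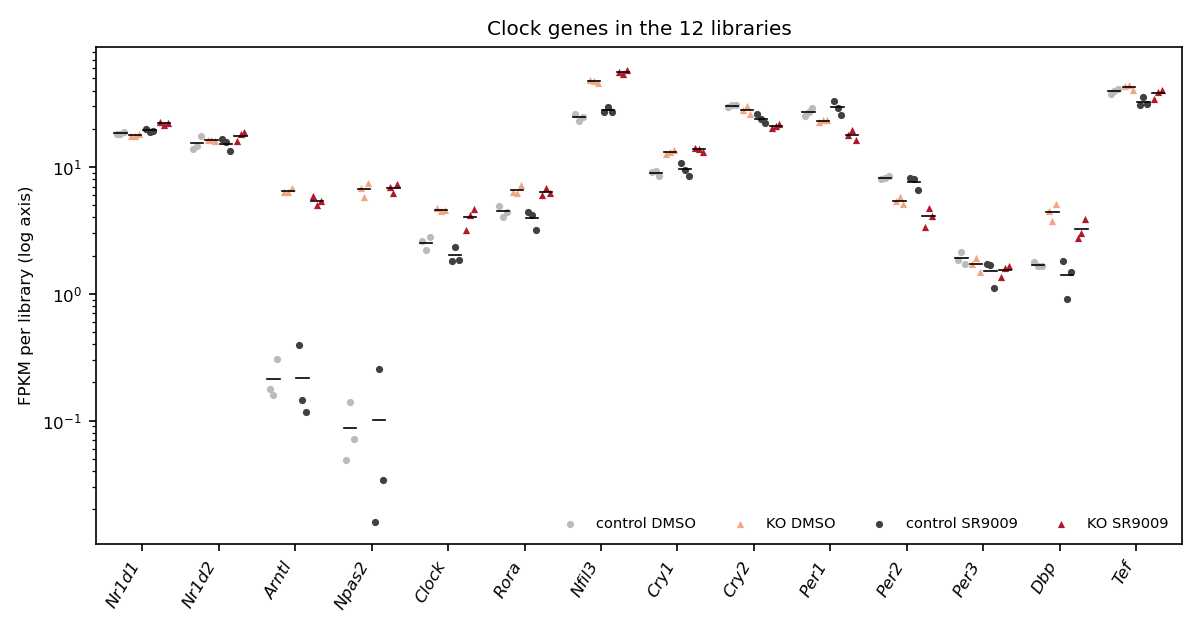
FPKM (log axis) of 14 clock genes in all 12 libraries; points are the 3 libraries of a group and black lines their means. Arntl and Npas2 stand below 0.4 FPKM in every control library and between 4.99 and 7.47 FPKM in every KO-labelled one, and Nr1d1 and Nr1d2 stand between 13.5 and 22.5 FPKM in all 12.

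Of 15 tested genes described as repressed by REV-ERB in liver, 10 were higher, 2 lower and 3 not called (median 0.87). Of those higher, 5 are clock genes named above, and the others act in metabolism. Insig2, which retains SCAP and so restrains SREBP activation, stood at 90.02, 106 and 100.4 FPKM in the control libraries and 289.7, 288 and 323 FPKM in the KO-labelled ones. G6pc, the last enzyme of glucose release, stood at 50.5, 63.6 and 47.9 FPKM in the control libraries and 186, 172 and 172 FPKM in the KO-labelled ones, 3.27-fold higher. Pck1, the entry enzyme of gluconeogenesis, rose from 17.3 ± 2.3 to 33 ± 4.35 FPKM, and the lipid droplet coat gene Plin2 from 434 ± 12.1 to 791 ± 30.5. Among the 2 members that fell was the vasopressin receptor gene Avpr1a (37 ± 3.21 to 24.3 ± 2.04 FPKM). In DMSO the list had 10 higher and 2 lower, and Avpr1a was not among the latter (log2 difference 0.06, adjusted p = 0.641). The difference of its effects was not called (adjusted p = 0.124). Pck1, Plin2 and Avpr1a were named after their values were seen.

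Drug metabolism moved both ways. For the counts that follow, the shares over all tested genes were 12.9% higher and 7.43% lower. Of 23 tested cytochromes P450 and their reductase, 9 were higher and 4 lower in the KO-labelled cells (median log2 difference 0.11). Besides Cyp2a5, Cyp2c55 rose from 5.26 ± 0.601 to 23.2 ± 1.08 FPKM, Cyp2f2, a periportal enzyme, from 201 ± 11.8 to 438 ± 4.75 and Cyp3a25 from 121 ± 4.66 to 262 ± 9.34. The 4 that fell, named after their values were seen, were Cyp2c38, Cyp2b10, Por and Cyp2d26, with log2 differences of -1.83, -1.03, -0.64 and -0.45. Cyp2b10 is the classic target of the receptor CAR and Por supplies the electrons of the P450s. Of 33 tested conjugating enzymes, 13 were higher and 10 lower in the KO-labelled cells (median log2 difference 0.17). Gstm2, a glutathione transferase of the mu class, rose from 45.6 ± 2.67 to 157 ± 2.03 FPKM, and Gsta4 of the alpha class fell from 73.6 ± 6.22 to 27 ± 1.38. The epoxide hydrolase Ephx1 rose from 267 ± 5.82 to 461 ± 10.4 FPKM. Of 20 tested transporters, 5 were higher and 5 lower. They included the exporter of phosphatidylcholine Abcb4 (33.9 ± 1.96 to 59.8 ± 1.22 FPKM), the anion importer Slco1a1 (48.8 ± 4.39 to 77.4 ± 2.91) and the anion transporter Slc22a7 (4.31 ± 0.179 to 0.747 ± 0.168). Of 18 tested nuclear receptors, 2 were higher, a share close to that over all tested genes, and 4 lower. The bile acid receptor FXR (Nr1h4) fell from 12.7 ± 1.26 to 7.5 ± 1.25 FPKM, the xenobiotic receptors PXR (Nr1i2) from 30.2 ± 2.14 to 20.5 ± 1.61 and CAR (Nr1i3) from 9.64 ± 0.807 to 6.13 ± 0.338, and Ppard rose from 11 ± 0.446 to 17 ± 1.35. The CAR model overlaps that of Tomm40l by 2900 bp on the opposite strand.

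Lipid synthesis and oxidation genes were lower more than higher, beside shares of 12.9% higher and 7.43% lower over all tested genes. Of 24 tested genes of cholesterol synthesis and SREBP2, 0 were higher and 7 lower in the KO-labelled cells (median log2 difference -0.16). They included Fdps, which makes farnesyl diphosphate (216 ± 16.7 to 132 ± 4.23 FPKM), Idi1 (46.8 ± 0.926 to 32.4 ± 0.368) and Pmvk (19.2 ± 4.6 to 8.39 ± 0.614), both of the mevalonate pathway. Of 24 tested genes of fatty acid and triglyceride synthesis, 2 were higher and 8 lower in the KO-labelled cells (median log2 difference -0.04). The desaturases Fads2 and Fads1 fell from 65.9 ± 3.79 to 44.6 ± 2.06 and from 73.3 ± 5.04 to 54.4 ± 1.39 FPKM, while Acly, which makes acetyl-CoA from citrate, rose from 172 ± 8.03 to 245 ± 7.44. Of 33 tested genes of fatty acid oxidation, ketogenesis and PPARα, 5 were higher and 14 lower in the KO-labelled cells (median log2 difference -0.13). Several of those that fell are known PPARα targets. Besides Cyp4a14 and Acaa1b, Cyp4a10 fell from 96.2 ± 3.06 to 25 ± 0.472 FPKM and the pantetheinase Vnn1 from 19.3 ± 0.719 to 4.48 ± 0.209. Members of the Cyp4a family are near copies and uncertain singly. Fgf21, a fasting hormone and PPARα target, went the other way, from 3.72 ± 0.746 to 12.8 ± 2.06 FPKM, and was named after its value was seen. Plin2, described above and a member of this list too, also rose, from 434 ± 12.1 to 791 ± 30.5 FPKM. Among 23 tested genes of lipoproteins, 7 were higher and 2 lower, with Mttp, which loads lipid onto apolipoprotein B, rising from 102 ± 8.03 to 132 ± 4.64 FPKM and the hepatic lipase Lipc from 56.2 ± 2.89 to 69.9 ± 2.71.

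Glucose output genes were called in both directions, and glycolytic genes were lower more often than higher. Of 22 tested genes of glucose production and glycogen, 9 were higher and 4 lower in the KO-labelled cells (median log2 difference 0.06). The median over all tested genes was also 0.06, with 12.9% called higher and 7.43% lower. The alanine transaminases split: Gpt rose from 95.3 ± 4.48 to 142 ± 7.82 FPKM and Gpt2 fell from 108 ± 9.48 to 65 ± 3.25. The serine dehydratase Sds fell from 45.7 ± 3.92 to 25.5 ± 0.307 FPKM. Of 19 tested genes of glycolysis and glucose uptake, 2 were higher and 8 lower in the KO-labelled cells (median log2 difference -0.12). The transporter Slc2a2 stood at 88.3, 97.4 and 78.3 FPKM in the control libraries and 32.7, 35 and 36.8 FPKM in the KO-labelled ones, and the enzyme Gapdh fell from 147 ± 7.75 to 99.4 ± 3.92 FPKM. The 2 that rose were the liver pyruvate kinase Pklr (90.1 ± 13.6 to 155 ± 5.54) and Gckr, the regulator of glucokinase (34.6 ± 1.46 to 51.5 ± 4.47). Of 12 tested genes of bile acid synthesis, 6 were higher and 1 lower. Cyp7b1, the oxysterol hydroxylase, rose from 55.5 ± 1.53 to 95.9 ± 1.36 FPKM and Acox2, of side chain oxidation, from 19.1 ± 0.852 to 27.9 ± 0.511, while Cyp27a1 fell from 235 ± 2.12 to 204 ± 0.956. Cyp7a1, the rate-limiting enzyme, stayed below the filter.

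Genes of amino acid breakdown were called higher more often than all tested genes, of which 12.9% were higher and 7.43% lower. Of 35 tested genes of the urea cycle and amino acid breakdown, 19 were higher and 3 lower in the KO-labelled cells (median log2 difference 0.22). Tdo2, which opens the tryptophan ring, rose from 113 ± 3.25 to 259.8 ± 22.5 FPKM, the glycine decarboxylase Gldc from 15.3 ± 2.21 to 41.5 ± 1.98 and the argininosuccinate synthase Ass1 from 654 ± 37.7 to 1118 ± 36.9. The 3 that fell, named after their values were seen, were Tat, Cth and Glul, with log2 differences of -0.53, -0.33 and -0.29. Of 17 tested major urinary proteins and lipocalins, 13 were lower and 3 higher (median -0.93). Mup19 fell from 1883 ± 65.1 to 516 ± 4.69 FPKM and Mup16 from 891 ± 27.9 to 390.0 ± 22.6. The higher ones were Lcn13, Mup20 (1081 ± 189 to 2769 ± 61) and Mup21 (99.2 ± 16.2 to 281 ± 3.94), and Mup20 and Mup21 were named after their values were seen. The Mup genes are near-identical copies, so that single members are uncertain. Of 14 tested genes of the growth hormone and IGF axis, 5 were higher and 0 lower. Besides Serpina12, Socs2, a feedback inhibitor of growth hormone signals, rose from 6.83 ± 0.722 to 11.6 ± 0.914 FPKM and Igfals, which stabilizes circulating IGF, from 2.83 ± 0.102 to 5.12 ± 0.481. Of 11 tested genes of thyroid hormone action, 4 were higher and 2 lower. The membrane transporter gene Slc16a10 rose from 22.2 ± 1.79 to 39.1 ± 2.78 FPKM, beside the fall of Dio1.

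Stress responses differed by branch, beside shares of 12.9% higher and 7.43% lower over all tested genes. Of 22 tested chaperones and unfolded protein response genes of the endoplasmic reticulum, 12 were higher and 0 lower (median 0.40). The disulfide isomerases Pdia4 and Pdia6 rose from 39.96 ± 1.09 to 76.5 ± 2.76 and from 83.6 ± 6.65 to 135 ± 1.3 FPKM, Sdf2l1 from 14.4 ± 1.92 to 30.1 ± 1.52 and the calcium-binding chaperone Calr from 193 ± 7.78 to 273 ± 7.43. Of 23 tested genes of the ATF4 response, 11 were lower and 0 higher (median -0.25). They included the transcription factors Atf3 (80.4 ± 2.83 to 43.9 ± 0.885 FPKM) and Cebpb (114 ± 8.58 to 68 ± 8.05) and the asparagine synthetase Asns (38.5 ± 1.09 to 22.3 ± 3.14). Of 17 tested p53 targets, 8 were higher and 3 lower. Cdkn1a (p21), which halts the cell cycle, rose from 115 ± 3.18 to 189.7 ± 4.13 FPKM and Phlda3, an inhibitor of AKT, from 1.2 ± 0.369 to 6.3 ± 0.793, while Gadd45a fell 2.1-fold from 415 ± 7.94 to 197 ± 11.2. Of 24 tested NRF2 targets, 8 were higher and 4 lower, among them Pgd of the pentose phosphate pathway (195 ± 1.52 to 292 ± 11.1) and the quinone reductase Nqo1 (17 ± 0.725 to 24.7 ± 1.47). Cbr1, a carbonyl reductase, fell from 90.1 ± 6.75 to 57.2 ± 2.19 FPKM. Hspb1 and Hspb8, which encode small heat shock proteins, fell from 187 ± 8.64 to 78.9 ± 5.2 and from 372 ± 10.03 to 269.7 ± 3.99 FPKM. Of 18 tested heat shock genes 2 were higher and 3 lower. With 18 genes these counts are near the shares over all tested genes, 12.9% higher and 7.43% lower.

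Of 14 tested immediate early genes, 9 were lower and 0 higher (median -0.46), beside 7.43% lower and 12.9% higher over all tested genes. Egr1, induced by growth signals, stood at 27.8, 31 and 25.8 FPKM in the control libraries and 10.8, 12.9 and 11.4 FPKM in the KO-labelled ones. The phosphatase gene Dusp1 stood at 82.1, 72.9 and 63.6 FPKM in the control libraries and 25.7, 35.2 and 25.1 FPKM in the KO-labelled ones, and Zfp36, which destabilizes messages, at 72.8, 64.8 and 64 FPKM in the control libraries and 29.5, 31.5 and 31.6 FPKM in the KO-labelled ones. In each the control libraries were more than 1.5 times the KO-labelled ones. Of 20 tested YAP, SRF and cytoskeleton genes, 8 were lower and 0 higher (median -0.38), among them the keratin Krt18 (2932 ± 126 to 1823 ± 83.5 FPKM) and the actin-binding Tagln2 (21.1 ± 2.06 to 8.53 ± 0.55). Of 23 tested genes of MYC and ribosome biogenesis, 2 were lower, a share close to that over all tested genes, and 0 higher. The 2 were Odc1 (121 ± 4.17 to 93.5 ± 6.05) and Myc (138 ± 10.6 to 109 ± 10.3). None of 25 proteasome subunits passed. Of 13 messages encoded in mitochondria, 8 were lower and 0 higher (median -0.51), with mt-Cytb falling from 2136 ± 183 to 1410.1 ± 97.8 FPKM. All genes of the mitochondrial chromosome made up 7.28%, 7.98% and 8.2% of summed FPKM in the control and 6.67%, 7.54% and 6.62% in the KO-labelled libraries, which overlap.

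Acute phase genes were lower more often than higher, and complement and coagulation genes the reverse. Among all tested genes 12.9% were higher and 7.43% lower. Of 23 tested acute phase genes, 13 were lower and 5 higher (median -0.42). Fgl1, a fibrinogen-like hepatokine, stood at 356, 366 and 403 FPKM in the control libraries and 114, 105 and 104 FPKM in the KO-labelled ones, and hepcidin (Hamp), the hormone that limits iron uptake, fell from 738 ± 146 to 372 ± 5.15 FPKM. Apcs stood at 129, 136 and 146 FPKM in the control libraries and 416, 395 and 365 FPKM in the KO-labelled ones, 2.87-fold higher, and Itih3 rose from 326 ± 16.9 to 574 ± 4.11. Of 32 tested complement and coagulation genes, 14 were higher and 2 lower. Factor XI (F11) rose from 10.4 ± 1.18 to 21.6 ± 1.3 FPKM and complement C9 from 92.1 ± 3.88 to 135 ± 7.4, while complement factor D (Cfd) fell from 1.59 ± 0.0979 to 0.0605 ± 0.105. Of 26 tested interferon and antigen presentation genes, 7 were higher and 6 lower. The antiviral gene Rsad2 rose from 9.79 ± 0.511 to 23.4 ± 4.2 FPKM, and Isg15 and the GTPase Gbp2 fell from 134 ± 20.8 to 47.9 ± 3.81 and from 75.6 ± 1.92 to 32 ± 1.88. Of 18 tested chemokine and NF-kB feedback genes, 4 were higher and 0 lower, and with 18 genes these counts are near the background. Ccl7 rose from 0.645 ± 0.508 to 4.37 ± 0.662 FPKM beside Ccl2. Of 21 tested hepatocyte transcription factors, 3 were higher, a share close to that over all tested genes, and 6 lower. Those that fell included Foxa3 (22.8 ± 0.658 to 10.6 ± 0.408), Cebpd (51.3 ± 5.78 to 29.3 ± 0.143) and Gata6 (12.9 ± 2.02 to 6.47 ± 0.224).

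The remaining lists also held called members, where 12.9% of all tested genes were higher and 7.43% lower. Of 24 tested genes of heme and iron, 8 were higher and 4 lower in the KO-labelled cells (median log2 difference 0.12), with the ferroxidase ceruloplasmin (Cp) rising from 250.3 ± 50.3 to 512 ± 50.7 FPKM, hemojuvelin (Hfe2), an activator of hepcidin expression, from 1.61 ± 0.18 to 3.72 ± 0.12 and the last enzyme of heme synthesis, Fech, from 21.4 ± 1.64 to 32 ± 2.79. Of 20 tested steroid dehydrogenases and reductases, 7 were higher and 3 lower in the KO-labelled cells (median log2 difference 0.11). Besides Hsd17b6 and Dhrs9, the lipid droplet protein gene Hsd17b13 rose from 124 ± 13.8 to 207 ± 1.82 FPKM and Rdh9 from 9.14 ± 0.332 to 15.6 ± 0.74. Of 25 tested genes of autophagy and lysosome, 10 were higher and 1 lower in the KO-labelled cells (median log2 difference 0.21). The protease Ctsl rose from 1018 ± 23.5 to 1714 ± 49.8 FPKM, and the 1 that fell was Map1lc3a, a coat protein of autophagosomes (79.8 ± 5.92 to 41.7 ± 3.82). Of 10 tested genes of collagen modification, 5 were higher and 1 lower in the KO-labelled cells (median log2 difference 0.26), with the procollagen proteinase Bmp1 rising from 16.6 ± 2.86 to 26.3 ± 1.4 FPKM beside Loxl4. Of 16 tested genes of insulin signalling, 2 were higher and 1 lower, shares close to those over all tested genes. The adaptor gene Irs1 rose from 0.947 ± 0.121 to 2.34 ± 0.285 FPKM and the pseudokinase gene Trib1 fell from 33 ± 1.95 to 13.4 ± 0.958. Of 22 tested genes that mark liver zones, 7 were higher and 4 lower in the KO-labelled cells (median log2 difference 0.01), among them the glutaminase Gls2 (11.3 ± 0.0587 to 23.3 ± 2.33). Of 24 tested genes of the TCA cycle, 6 were higher and 5 lower in the KO-labelled cells (median log2 difference 0.03).

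**Figure D3:**
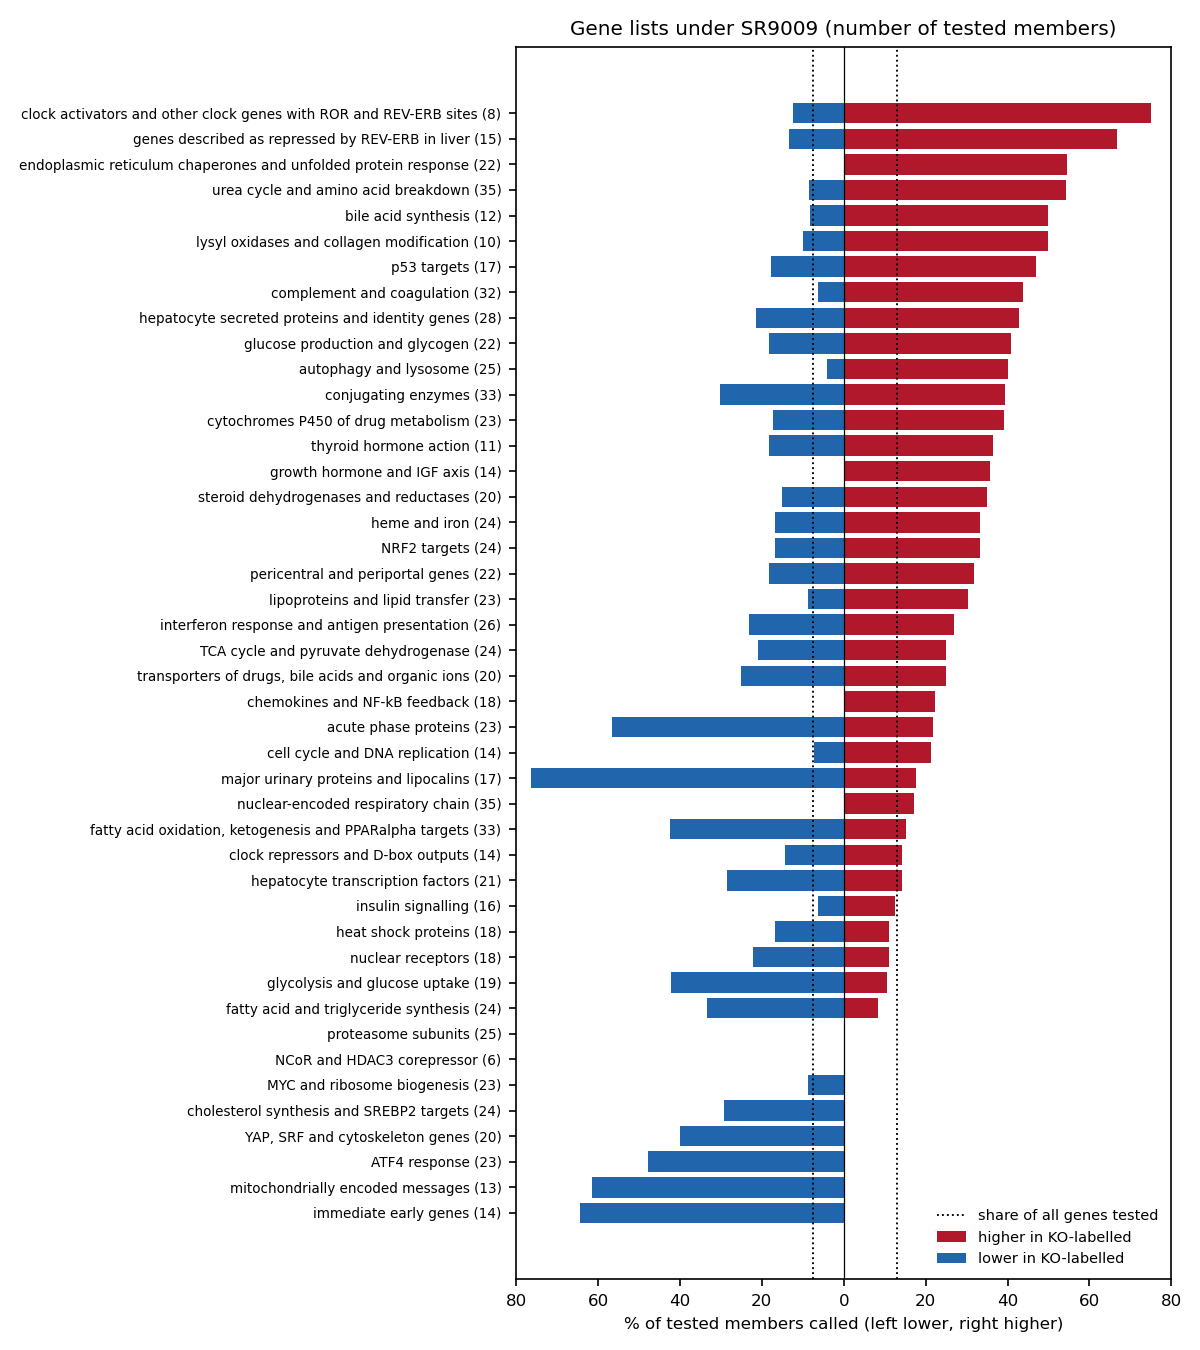
Share of the tested members of 44 gene lists called higher (right, red) or lower (left, blue) in KO-labelled cells under SR9009; dotted lines mark the shares over all genes tested, 12.9% higher and 7.43% lower. Clock activators, genes described as repressed by REV-ERB in liver and chaperones of the endoplasmic reticulum lie at the top, in this order. Immediate early genes and mitochondrial messages, with no member higher, lie at the bottom.

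Markers of other cell types were checked in the same libraries, and in bulk RNA fewer cells of a type and less RNA per cell cannot be told apart. The 10 hepatocyte markers summed to 33110.0 to 35240.0 FPKM in the control and 36770.0 to 37770.0 FPKM in the KO-labelled libraries, and 4 were higher and 2 lower. The 13 Kupffer cell and macrophage markers summed to 57.7 to 62.5 and 51.4 to 54.9 FPKM. Of 10 tested, the scavenger receptor Marco fell (9.4 ± 1.47 to 1.85 ± 0.76) and Cd68 rose (19 ± 1.28 to 28 ± 2.87). The 10 sinusoidal endothelial markers summed to 9.33 to 10.3 and 13.2 to 14.5 FPKM, with none of 5 tested called. The 6 erythroid genes summed to 38.7 to 48.9 and 28.6 to 34.4 FPKM, and 3 of 4 tested were lower, led by the globin Hba-a2 (2.27 ± 1.16 to 0.532 ± 0.466). Most of the sum was Alas2, at 33.7, 34.3 and 37.4 FPKM in the control and 30.5, 25.3 and 30.5 FPKM in the KO-labelled libraries. The Alas2 model overlaps that of Apex2 on the opposite strand by 23264 bp. The calls of Alas2, Hba-a2 and Hbb-b1 were lost under 3, 4 and 7 alternatives. The 8 cholangiocyte markers summed to 41.3 to 63.9 and 37.3 to 41.4 FPKM. Of 3 tested, 2 were higher, among them the transcription factor gene Sox9 (3.58 ± 0.779 to 11.1 ± 0.6), and osteopontin (Spp1) fell (43.8 ± 11.4 to 25.2 ± 2). The 10 stellate markers summed to 1.8 to 3.3 and 2.11 to 2.36 FPKM, with the 1 tested not called. Lymphocyte and neutrophil markers summed to below 1 FPKM in every SR9009 library, with no member tested. In the KO-labelled SR9009 libraries 5 of 9 lymphocyte and 5 of 8 neutrophil markers were listed at 0 throughout. The part of these cells in the differences above, the inflammatory lists and Marco included, was not tested.

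The deletion contrast in DMSO used 6 other libraries, and its values stand beside those under SR9009. It called 2240 genes (20%), 1307 higher (11.7%) and 933 lower (8.32%). Of the 2283 calls under SR9009, 65.1% were also called in DMSO, and of the DMSO calls 66.3% under SR9009. Of the 1486 genes called in both, 1484 had the same direction (891 higher and 593 lower). Across 11213 genes the log2 differences correlated with r = 0.779, as a description over genes, which are not independent and share gene length and expression level. The labels do not say whether libraries of both treatments came from the same mice. For the large changes the values were close: the log2 differences under SR9009 and in DMSO were 3.18 and 3.06 for Hsd17b6, 2.83 and 2.82 for Npas2, 2.56 and 2.52 for Cyp17a1, -3.09 and -3.13 for Cyp4a14, and -2.58 and -2.40 for Dio1. Others stood further apart, as -2.95 and -2.23 for Ctgf or -2.28 and -2.83 for Slc13a5. The difference of these effects did not pass for Ctgf (adjusted p = 0.599) or for Slc13a5 (0.648).

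**Figure D4:**
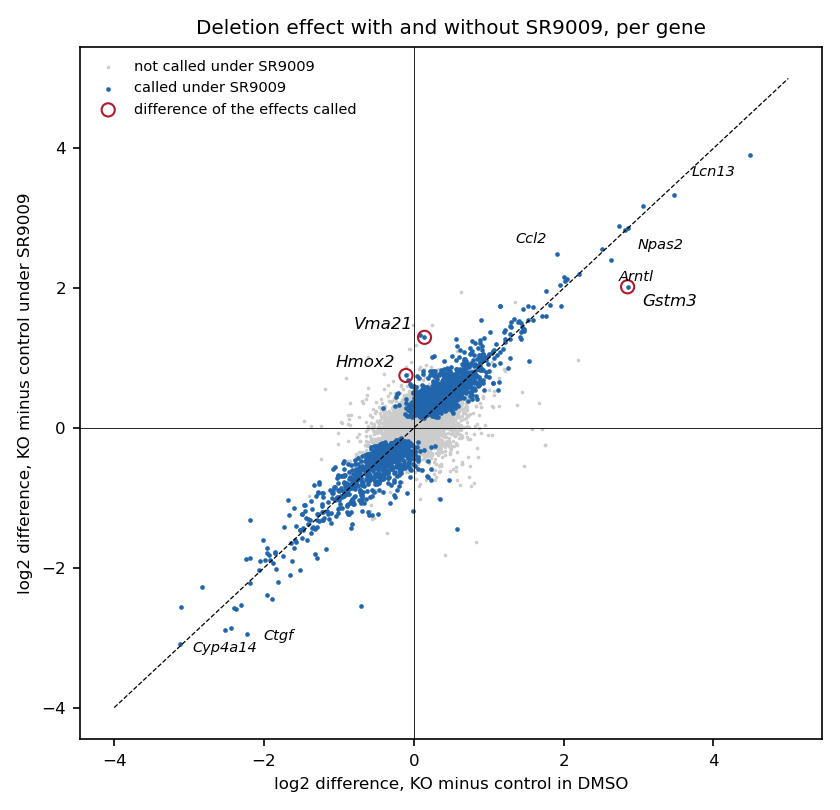
Log2 difference between KO-labelled and control cells under SR9009 (vertical) against that in DMSO (horizontal) for 11213 genes; blue points were called under SR9009, red circles mark genes whose difference between the effects was called, and the dashed line marks equality. Hmox2 and Vma21 lie near 0 in DMSO and above it under SR9009, and Gstm3 lies below the line.

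The deletion effect differed between SR9009 and DMSO for 3 genes (0.0268% of those tested) in limma's interaction test, upward for 2 (0.0178%) and downward for 1 (0.00892%), and 787 genes (7.02%) had an unadjusted p under 0.05. This test is less precise than the contrast itself, with a median SE of 0.156 against 0.111 on the log2 scale, so small differences in effect were not detectable for most genes. Of the 797 genes called under SR9009 and not in DMSO, 731 had the same sign in DMSO, and the difference was called for 2. Hmox2, the constitutive heme oxygenase, stood at 20.7, 21.5 and 21.2 FPKM in the control libraries and 35.2, 35.5 and 38.2 FPKM in the KO-labelled ones under SR9009, and at 40.3, 35 and 35.1 FPKM in control DMSO and 33.4, 33.6 and 35.4 FPKM in KO-labelled DMSO libraries. The control SR9009 libraries stood alone as low, without overlap with any of the other 9. The interaction of Hmox2 was 0.86 (adjusted p = 0.00854), and its model overlaps that of 5730403B10Rik on the opposite strand by 16395 bp.

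Vma21, an assembly factor of the vacuolar proton pump, was also lowest in the control SR9009 libraries. It stood at 2.31, 2.39 and 3.44 FPKM in the control libraries and 7.88, 7.74 and 8.51 FPKM in the KO-labelled ones under SR9009, and at 6.6, 5.87 and 6.82 FPKM in control and 7.77, 7.06 and 6.78 FPKM in KO-labelled DMSO libraries (interaction 1.15, adjusted p = 0.0414). Gstm3 was higher in KO-labelled cells under both treatments, but by a smaller ratio under SR9009. It stood at 322, 329 and 299 FPKM in the control libraries and 1275, 1309 and 1276 FPKM in the KO-labelled ones under SR9009, and at 89.9, 116 and 105 FPKM in control and 761, 759.5 and 734 FPKM in KO-labelled DMSO libraries (interaction -0.83, adjusted p = 0.0307). The ratio of the means was 7.25 in DMSO and 4.06 under SR9009, while the gap in FPKM was wider under SR9009. Its model overlaps that of Gstm6 on the same strand by 1417 bp. Under 20 alternatives the interaction was called in 17 for Hmox2, in 7 for Gstm3 and in 3 for Vma21, with the same sign throughout, and with the replicate block none of the 3 was called.

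**Figure D5:**
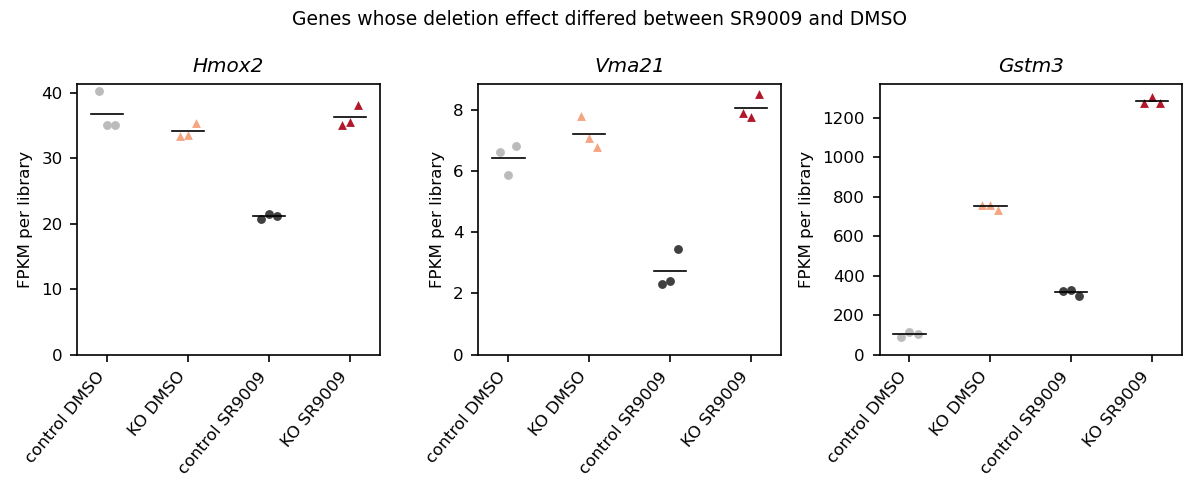
FPKM per library of Hmox2, Vma21 and Gstm3 in the 4 groups; points are libraries and black lines group means, on axes that start at 0. Control SR9009 is the low group for Hmox2 (20.7 to 21.5 FPKM) and Vma21 (2.31 to 3.44 FPKM), and KO-labelled SR9009 the high group for Gstm3 (1275 to 1309 FPKM).

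Arl4d and Nrn1 were the 2 genes called in both treatments in opposite directions. Arl4d, a small GTPase, went from 91 ± 5.06 to 76 ± 2.78 FPKM under SR9009 and from 80.7 ± 5.58 to 98.4 ± 3.42 in DMSO. Nrn1, a membrane-anchored neurotrophic protein, went from 31.6 ± 3.87 to 38.7 ± 2.15 FPKM under SR9009 and from 43.3 ± 4.19 to 32.1 ± 0.29 in DMSO. Neither difference of effects passed (adjusted p = 0.0991 and 0.134), and both genes were named after their values were seen. Per1, Tat and Cebpb had log2 differences of -0.69, -0.53 and -0.75 under SR9009, where the DMSO values were -0.23, -0.08 and -0.27. For these too the difference of effects was not called (adjusted p = 0.549, 0.549 and 0.372).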

How the data were processed

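The authors deposited 1 table of 37991 gene models with a value per library, for which the submitters' processing notes name HISAT2, StringTie and the mouse build mm9. Tool versions, the annotation and the strand setting were not found in the labels. No unit is stated in the header. FPKM was inferred for the deposited values from library sums that differ (538521 to 604449), as TPM sums would not. Without a strand setting, overlapping genes on opposite strands cannot be separated. Values were analysed as log2(FPKM + 1) for genes that reached 1 FPKM in 3 or more of 12 libraries. The model, fitted in limma 3.58.1 (R 4.3.3) to all 12 libraries, had a mean for each group and moderated variances with trend and robust options. Benjamini-Hochberg adjustment covered the 11213 genes, with a threshold of 0.05, and every adjusted p comes from this model. Errors after ± are SDs over n = 3 libraries, and folds are ratios of mean FPKM. The fit was tested on simulated data.

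Named genes were Nr1d1 and Nr1d2, up to 15 per direction with the largest difference (called, not overlapping, at least 5 FPKM), interaction genes called, up to 4 members per list with the smallest p, clock genes and markers. Some named genes are not reported here. Members and lists were chosen with earlier results of these data known. Promoter windows are RefSeq's (GRCm38.p6), used for sequence only; 42 of 54 symbols searched had one. Deviations from the group means of same-numbered control and KO-labelled SR9009 libraries correlated at -0.0938, 0.0733 and -0.0687. Same-numbered SR9009 and DMSO libraries were not compared, so these values cannot decide whether the libraries are paired.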

Additional observations from a re-analysis of the deposited data

Results flagged for a closer look

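The deletion effect of 3 genes differed between SR9009 and DMSO by limma's interaction test. The effect under SR9009 minus that in DMSO was 0.86 on the log2 scale for Hmox2, 1.15 for Vma21 and -0.83 for Gstm3. For Hmox2 and Vma21 the control SR9009 libraries were the ones apart from the other 3 groups, and Gstm3 may share reads with near copies. Over 20 alternatives the adjusted p ranged from 0.00572 to 0.0615 for Hmox2, from 0.0102 to 0.256 for Gstm3 and from 0.00477 to 0.195 for Vma21.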

How the results depend on the processing

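Of 176 named genes called under SR9009, 161 were called under every alternative that tested them, and none changed direction in any of the 15. The call of Nr1d1 was lost under 10, of Foxo4 and Sdhb under 9, of Rrm1 under 8, of Hbb-b1 under 7, and of Hba-a2 under 4. The count of 2283 genes was 1518 in the fit to the 6 SR9009 libraries, of which 1482 were shared. Leaving out 1 library gave 1651 to 2199 genes, and 1607 to 1759 in DMSO. Quantile normalization gave 1171 higher and 999 lower, a share higher of 54% against 63.5%. The interaction count of 3 was 1 without a filter, 1 after quantile normalization, 1 with neither trend nor robust variance, 0 with the replicate block, and 0 to 5 when 1 library was left out; the cause was not tested. With the replicate block 2131 genes were called under SR9009 and 2084 in DMSO. The labels do not say whether libraries of the same number belong together. Depth limits calls below about 0.1 FPKM.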
